A study of Mus musculus with 8 samples.

Results

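The genes described here drive mitosis, the stage of the cell cycle in which copied chromosomes are attached to a spindle of microtubules and pulled apart. The set holds 50 genes for mitotic kinases, kinesin motors, kinetochore and checkpoint proteins and their partners, found by gene symbol in a table of 24537 genes. All 50 were present, had at least 35 counts in every tumour and passed the filter on low counts. RNA was sequenced from EpCAM-positive cells that had been sorted from 8 mouse pancreatic tumours, with 1 library per tumour. The mice were of the FVB/NJ strain and 44 to 49 days old. All 8 carried Pdx1-Cre with Trp53f/f and Rosa26LSL-Luc among their shared alleles, so every group has the floxed Trp53 and the luciferase reporter. Pdx1-Cre acts in pancreatic epithelium and its precursors, so cells of other origin keep their floxed alleles. The 4 tumours labelled KO were Lifrf/f. Of the 4 tumours labelled WT, replicates 1 and 2 were Lifrf/+ and replicates 3 and 4 were Lifr+/+. Lifr encodes a receptor subunit for leukaemia inhibitory factor, and the question was how gene expression differs in sorted tumour cells with Lifr deficiency.

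Mitosis begins when CDK1, bound to A-type and B-type cyclins, is switched on, and Polo-like and Aurora kinases then build the spindle. Kinesins slide and cap its microtubules, kinetochores hold the chromosomes to it, and the spindle checkpoint holds back chromosome separation until all are attached. Most of these genes are transcribed late in the cycle, so their RNA is low in resting cells and marks dividing ones. In many of them the promoter carries CCAAT boxes, bound by NF-Y, and a cell cycle homology region (CHR) with the core TTTGAA or TTTAAA, bound by the DREAM and MuvB complexes.

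These letters were common in the promoters of the set. A window of 250 bases before to 50 bases after the annotated start was matched for 43 of the 50 genes (RefSeq, GRCm38.p6, the same assembly as mm10), and Aurkb, Ccna2, Cdc25c, Kif20a, Spc24, Incenp and Tpx2 were not matched. CCAAT was found on either strand in 33 of the 43 windows (76.7%), against 37.9% of the windows of all tested genes that were matched (11191). At least 2 copies stood in 21 windows (48.8%, against 14.0%). TTTGAA or TTTAAA, also read on both strands, stood in 34 windows (79.1%, against 19.3%), and both kinds of motif in 28 (65.1%, against 7.64%). Matches of different motifs may share letters, as a TTTGAA and an ATTGG do in Cdca8, and TTTAAA reads the same on both strands. A match is a run of letters and not a measured binding site. Both kinds of motif together stood in 9 of 14 matched windows of members called higher in the tumours labelled KO and in 19 of 29 of those not called, and TTTAAA stood in 5 and 5 of them; these differences were not tested. The annotated starts used for Kif2c, Mad2l1 and Kif11 lay 3852, 247 and 21 bases from the start of the counted transcript.

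The following 7 stretches show the layout in promoters that hold both kinds of motif. Each runs from 170 bases before the annotated start to 30 bases from it, 5′ to 3′ on the strand of the gene. They do not stand for every member, as the searched window of Nuf2 held no match, that of Bub1 no CHR core and that of Kif15 no CCAAT. Capitals mark CCAAT (or ATTGG, its other strand) and TTTGAA (or TTCAAA) or TTTAAA. The first 4 belong to genes that rose in the tumours labelled KO, the next pair to genes that were not called and the last to Bub3, whose level was nearly the same in both groups.
Espl1, chr15:102296123-102296322, plus strand: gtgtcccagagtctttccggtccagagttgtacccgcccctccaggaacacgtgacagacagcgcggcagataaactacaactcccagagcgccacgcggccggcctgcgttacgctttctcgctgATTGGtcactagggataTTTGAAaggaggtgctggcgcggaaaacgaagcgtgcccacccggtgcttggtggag
Cenpa, chr5:30666716-30666915, plus strand: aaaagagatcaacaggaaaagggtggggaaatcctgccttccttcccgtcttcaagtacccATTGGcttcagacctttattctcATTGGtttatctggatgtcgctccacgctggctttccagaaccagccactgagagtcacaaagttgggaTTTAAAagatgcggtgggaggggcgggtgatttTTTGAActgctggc
Kif11, chr19:37376212-37376411, plus strand: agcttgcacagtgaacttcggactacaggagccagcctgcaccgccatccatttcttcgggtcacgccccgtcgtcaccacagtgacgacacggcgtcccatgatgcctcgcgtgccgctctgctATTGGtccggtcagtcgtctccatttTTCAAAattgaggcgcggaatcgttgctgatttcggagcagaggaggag
Top2a, chr11:99024160-99024359, minus strand: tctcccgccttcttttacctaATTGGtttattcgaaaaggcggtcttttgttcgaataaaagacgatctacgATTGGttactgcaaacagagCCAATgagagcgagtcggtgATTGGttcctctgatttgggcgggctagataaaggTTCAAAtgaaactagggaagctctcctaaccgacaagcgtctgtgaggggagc
Cdk1, chr10:69352883-69353082, minus strand: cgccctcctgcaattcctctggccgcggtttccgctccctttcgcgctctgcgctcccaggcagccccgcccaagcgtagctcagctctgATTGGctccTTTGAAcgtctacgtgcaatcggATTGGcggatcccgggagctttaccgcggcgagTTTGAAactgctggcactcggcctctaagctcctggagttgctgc
Ccnb2, chr9:70421525-70421724, minus strand: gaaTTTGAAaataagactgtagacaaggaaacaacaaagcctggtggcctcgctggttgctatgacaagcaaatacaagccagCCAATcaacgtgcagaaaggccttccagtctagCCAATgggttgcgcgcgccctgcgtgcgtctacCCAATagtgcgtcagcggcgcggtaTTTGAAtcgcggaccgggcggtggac
Bub3, chr7:131560200-131560399, plus strand: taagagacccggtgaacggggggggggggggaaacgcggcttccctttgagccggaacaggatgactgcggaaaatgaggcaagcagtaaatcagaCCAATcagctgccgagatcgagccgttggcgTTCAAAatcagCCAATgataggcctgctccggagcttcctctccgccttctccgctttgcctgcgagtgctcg

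**Figure D1:**
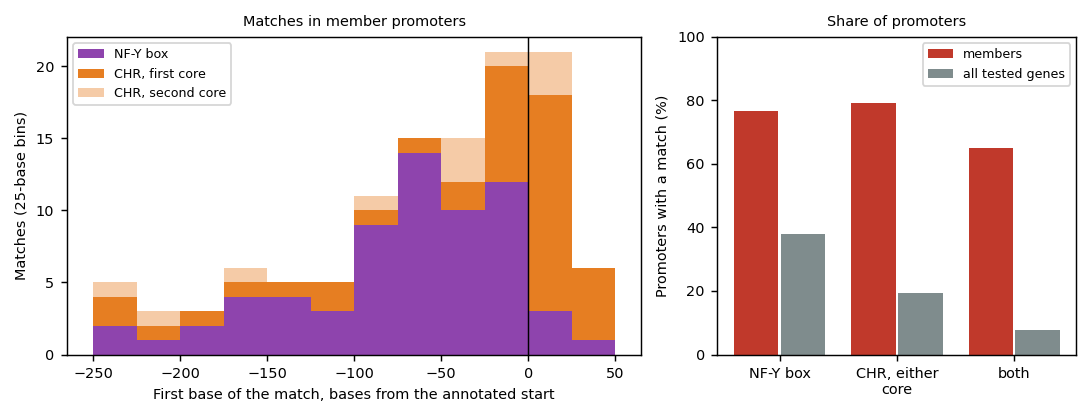
Left, stacked counts of matches on both strands to the NF-Y box and to the first and second CHR core named above, in 43 member promoters in bins of 25 bases, by the distance of their first base from the annotated start. Right, the share of promoters with a match in percent, for members and for all tested genes; both kinds of motif stood in 65.1% of member promoters and 7.64% of those of all tested genes.

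Facts of the whole table bear on every value below. Counts summed to between 14938875 and 22698340 per tumour. Lifr was higher in the tumours labelled KO, at 158, 205, 150 and 220 CPM (counts scaled to a common library size with TMM factors) in replicates 1 to 4, than in those labelled WT, at 126, 93.7, 71.8 and 99.6 CPM. A count over the whole transcript does not test whether the floxed part was deleted, and the labels do not name that part, so groups are called by their labels. All 20 epithelial markers were detected and their summed level was 3919 to 5550 CPM in the tumours labelled KO against 7332 to 9807 CPM in those labelled WT, with 14 of 20 called lower. Of 16 monocyte and macrophage markers 15 were called higher, with a summed level of 22768 to 29638 against 8606 to 15681 CPM, and none of the 16 was at 0. Of 10 markers shared by leukocytes 9 were called higher (3938 to 4684 against 1803 to 2785 CPM). Epcam, the sorted marker, was at a log2 fold change of −0.88, the macrophage lysozyme gene Lyz2 at 1.45 and the pan-leukocyte gene Ptprc at 0.73. Acinar markers, of which 0 of 11 tested were called by edgeR (3 higher at an unadjusted p under 0.05) and Amy2a5 was at 0 in all tumours, ranged from 1900 to 44018 against 433 to 9005 CPM, with KO replicate 1 highest. None of the T and NK cell (8), B and plasma cell (7), endothelial (8) or islet (9) markers tested was called by edgeR (unadjusted p under 0.05 in 0, 2, 0 and 4 of them), while 1 of 7 neutrophil and 2 of 11 fibroblast markers were called higher. Over all tested genes 11.1% were called higher and 10.8% lower. The part of these other cells in the mitotic levels was not tested, and in bulk RNA fewer cells of a type and less RNA per cell cannot be told apart.

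RNA of mitotic genes was more abundant in the tumours labelled KO, where its summed level was 1.38 times that of the controls in TMM-scaled CPM and 1.18 times in FPKM. Of the 50 genes 19 rose, 0 fell and 31 were not called (edgeR quasi-likelihood fit, Benjamini-Hochberg adjusted p under 0.05 over 14728 genes). That was 38% of the members, against 11.1% of all tested genes called higher and 10.8% called lower. The median log2 fold change, labelled KO minus labelled WT, was 0.48 over the members and 0.011 over all genes, and 48 of 50 members had a value above 0. In 20 members the groups stood fully apart, with every tumour labelled KO higher (40.0%, against 13.1% of all genes); the reverse held for 0. Of the 31 members not called, 15 had an unadjusted p under 0.05, all with higher values in the tumours labelled KO. The smallest margin of a call was that of Ndc80 (adjusted p = 0.0488), and the nearest miss was Prc1 (adjusted p = 0.0512). The count fell from 19 to 8 with libraries scaled by their totals alone, which left 43 members above 0 and moved the median of all genes to −0.17. With limma on the deposited FPKM values the count was between 5 and 7. The share of all tested genes called higher was 6.11% with totals alone and 4.10% to 6.69% with limma. Without KO replicate 1 the count was 31, with an all-gene share of 7.78%. Without KO replicate 2 or WT replicate 3 it was 11, with all-gene shares of 6.14% and 7.26%.

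**Figure D2:**
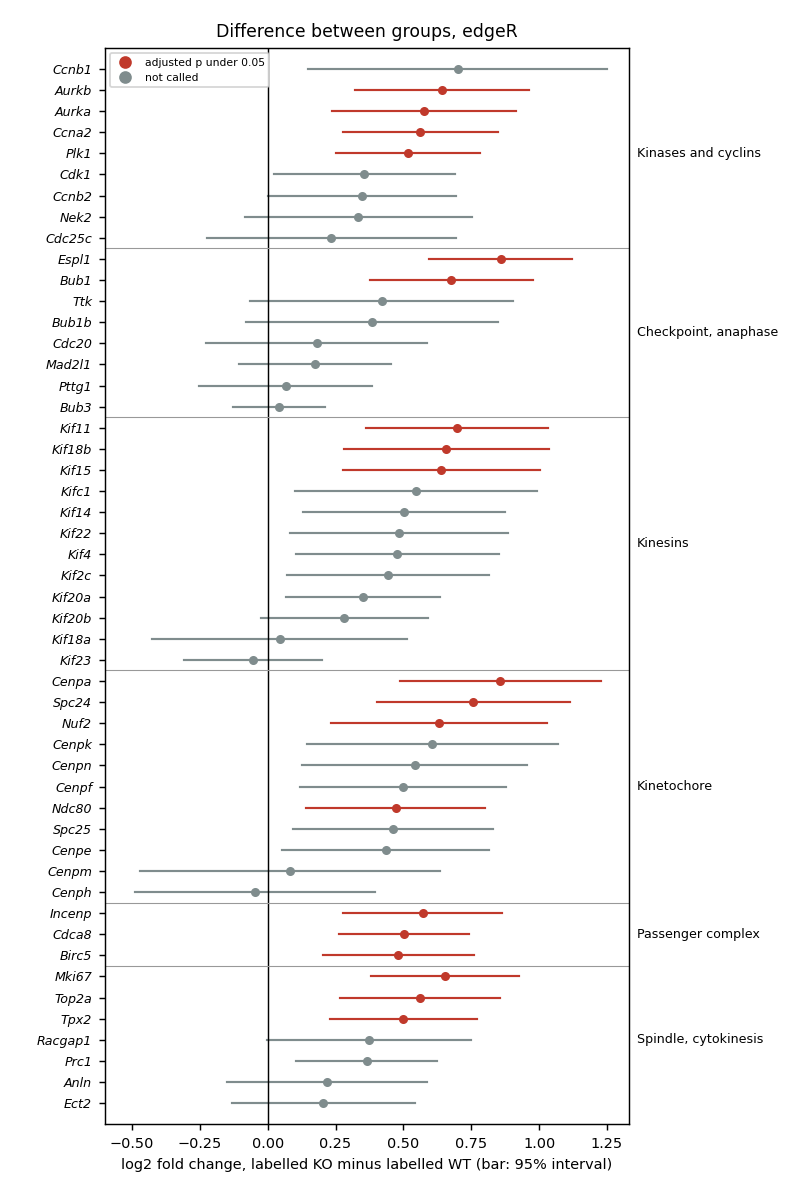
Log2 fold change of each member, labelled KO minus labelled WT (n = 4 each), with its 95% interval from edgeR, ordered by value within each role class. The 19 called members (red) all lie above 0, and only Kif23 and Cenph have a value below 0.

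The tumours labelled KO were not alike. Summed over the 50 genes the level was 1236, 1674, 1558 and 1768 CPM in KO replicates 1 to 4 and 1153, 1104, 1100 and 1175 CPM in WT replicates 1 to 4. KO replicate 1 was close to the controls and the other tumours labelled KO lay well above them. The means were 1559 ± 232 and 1133 ± 36.9 CPM (SD, n = 4 each), a ratio of 1.38 that became 1.47 without KO replicate 1. That tumour was the lowest of its group in 49 of 50 members, whereas it was the lowest in 24.6% of all tested genes. The exception was Spc24, which was lowest in KO replicate 2. KO replicate 4 was the highest of its group in 30 members and KO replicate 2 in 16. The median coefficient of variation of the members was 17.4% among KO tumours and 10.8% among the controls, and 9.54% among KO replicates 2 to 4. As a share of unscaled counts the 50 genes took 0.1099% in KO replicate 1, below the controls (0.115% to 0.123%), and 0.1502% to 0.170% in KO replicates 2 to 4. The summed FPKM gave the same order, with 195 in KO replicate 1, 210 to 226 in the controls and 268 to 291 in KO replicates 2 to 4. So whether KO replicate 1 stood above or below the controls depended on the scaling. It also held the most acinar RNA (44018 CPM), and the part of that RNA in its lower mitotic level was not tested; KO replicate 3 had 27152 CPM of acinar markers and a mitotic sum of 1558 CPM.

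**Figure D3:**
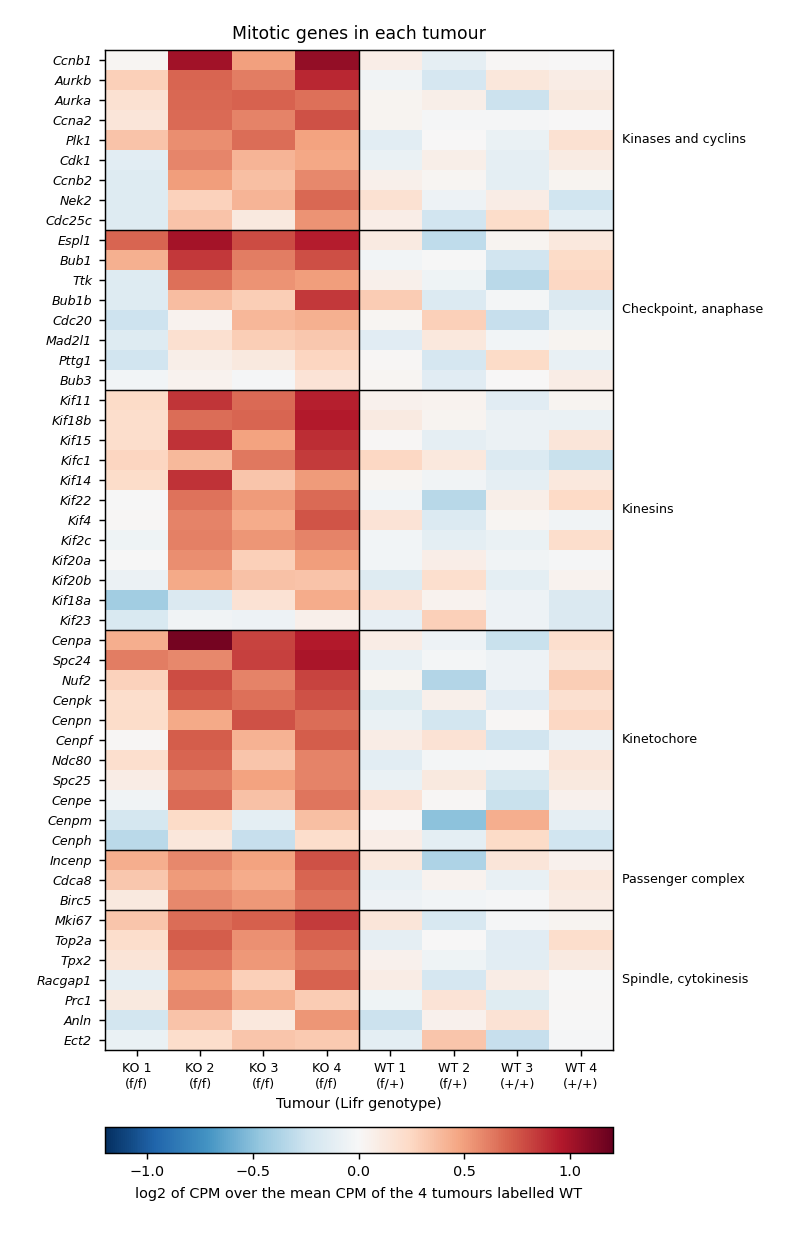
Each cell is the log2 of a member's CPM in 1 tumour over its mean CPM in the 4 tumours labelled WT, with members in rows by role class and tumours in columns with their Lifr genotype. KO replicates 2 to 4 are red in most rows, while KO replicate 1 is pale and above the WT mean in 28 of 50 rows.

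Every role class was higher in the group mean, and KO replicates 2 to 4 were above all controls in each. The sum of the kinetochore genes was 166 ± 30.4 against 114 ± 8.001 CPM (SD, n = 4 each), a ratio of 1.46. The ratio was 1.45 for the passenger complex, 1.43 for spindle and cytokinesis genes, 1.39 for kinases and cyclins, 1.29 for kinesins and 1.26 for checkpoint and anaphase genes. Such sums follow the most abundant genes of a class, and the median log2 fold change per gene gave another order. It was 0.52 for kinases and cyclins, 0.50 for the passenger complex and for kinetochore genes, and 0.48 for kinesins. Spindle and cytokinesis genes had 0.37 and checkpoint and anaphase genes 0.28. Differences between classes were not tested. KO replicate 1 was above all controls in the sums of 5 classes and within their range for kinesins (192 CPM against 183 to 201 CPM).

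**Figure D4:**
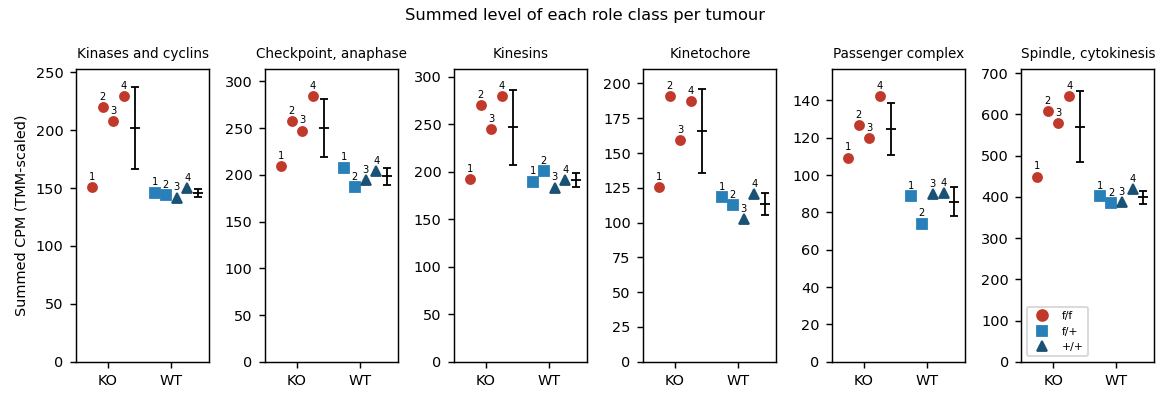
Summed CPM of each role class in each tumour, numbered by replicate and marked by Lifr genotype, with the mean and SD of each group (n = 4) as a bar beside the points. KO replicate 1 sits within the control range for kinesins and above it in the other 5 classes, with 109 against at most 90.2 CPM in the passenger complex.

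Among kinases and cyclins 4 of 9 rose and 0 fell (44.4% higher, against 11.1% of all tested genes). Aurkb, the Aurora kinase of the chromosomal passenger complex, was at 19.4, 25.8, 24.4 and 29.8 CPM in KO replicates 1 to 4 and at 15.4, 13.9, 17.5 and 16.9 CPM in WT replicates 1 to 4. All tumours labelled KO were above all controls, and its log2 fold change was 0.64 ± 0.14 (SE, edgeR adjusted p = 0.0148). Ccna2, which encodes cyclin A2 and carries cells through S phase into mitosis, was at 37.5, 54.3, 51.5 and 57.5 CPM against 34.7, 33.6, 33.6 and 34.1 CPM. The controls were tight (SD 0.534 CPM, n = 4) and KO replicate 1 was just above them, with a log2 fold change of 0.56 ± 0.13 (edgeR adjusted p = 0.0159). Plk1, the Polo-like kinase of spindle assembly and mitotic exit, was at 15.2, 17.6, 19.1 and 16.7 CPM against 10.9, 12.0, 11.3 and 13.6 CPM (0.52 ± 0.12, edgeR adjusted p = 0.0161). Aurka, the Aurora kinase of spindle poles, was at 13, 18.5, 18.7 and 18.1 CPM against 11.7, 12.1, 9.59 and 12.4 CPM (0.58 ± 0.15, edgeR adjusted p = 0.0271). Neither kinase overlapped between the groups, and Aurka missed the threshold in 5 of 8 fits with 1 tumour left out, those without WT replicate 1 or 3 or without KO replicate 2, 3 or 4 (edgeR adjusted p at most 0.0771).

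The core engine itself, CDK1 with cyclin B, did not pass the test. Cdk1 was at 28.2, 46.2, 40.8 and 42.6 CPM in KO replicates 1 to 4 and at 29.2, 32.4, 28.7 and 33.1 CPM in WT replicates 1 to 4, so KO replicate 1 was below every control and the other tumours labelled KO were above all of them. The log2 difference was 0.36 with a 95% interval of 0.023 to 0.69 (edgeR adjusted p = 0.117). Ccnb1, the gene of cyclin B1, had the largest value of the class (0.70 ± 0.24) and was not called (edgeR adjusted p = 0.0711), at 3.52, 6.95, 4.86 and 7.16 CPM against 3.65, 3.21, 3.5 and 3.48 CPM. Ccnb2, the gene of cyclin B2, was at 19.2, 30.3, 27.5 and 32.0 CPM against 22.3, 21.7, 19.7 and 21.9 CPM (0.35 ± 0.15, edgeR adjusted p = 0.137). In both cyclin genes KO replicate 1 fell within or below the control range and the remaining 3 tumours labelled KO were above it. Without that tumour Cdk1 (edgeR adjusted p = 0.0195), Ccnb1 (0.0292) and Ccnb2 (0.0212) were called. With any other tumour left out they were not called (edgeR adjusted p at most 0.270, 0.182 and 0.287). Nek2, a centrosome kinase, and Cdc25c, a phosphatase that activates CDK1, had log2 differences of 0.33 and 0.24 and were not called (edgeR adjusted p = 0.225 and 0.439).

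Among checkpoint and anaphase genes 2 of 8 rose and 0 fell (25% higher, against 11.1% of all tested genes). In a class this small that excess rests on few genes. Espl1, which encodes separase, the protease that cuts cohesin to release sister chromatids (mm10 chromosome 15, 102296293 to 102324356, plus strand), had the largest rise of the 50. It was at 48.4, 59.6, 51.3 and 57.4 CPM in KO replicates 1 to 4 and at 32.1, 24.2, 30.6 and 32.7 CPM in WT replicates 1 to 4. The groups were far apart, with KO replicate 1 well above the highest control, and the log2 fold change was 0.86 ± 0.12, with a 95% interval of 0.595 to 1.12 (edgeR adjusted p = 0.0044). Espl1 was called higher under all 19 alternatives tried. Bub1, a checkpoint kinase at kinetochores, was at 18.9, 25.4, 21.5 and 24.1 CPM against 13.8, 14.0, 12.0 and 16.4 CPM, again without overlap (0.68 ± 0.13, edgeR adjusted p = 0.01004). The other 6 genes of the class were not called. Securin, the inhibitor that holds separase until anaphase, is encoded by Pttg1, whose log2 difference was 0.066 with an interval of −0.25 to 0.38 (edgeR adjusted p = 0.769). Bub3, the checkpoint protein that brings BUB1 and BUBR1 to kinetochores, was at 64.5, 68.0, 65.2 and 73.7 CPM against 67.2, 60.0, 66.2 and 70.3 CPM. The groups overlapped, with KO replicate 4 above and WT replicate 2 below all tumours of the other group, and the log2 difference was 0.042 with a 95% interval of −0.13 to 0.21 (edgeR adjusted p = 0.729), turning below 0 with library totals or FPKM. Bub1b, Ttk, Cdc20 and Mad2l1, which encode BUBR1, the kinase MPS1, the activator of the anaphase-promoting complex and its checkpoint inhibitor, had log2 differences of 0.38, 0.42, 0.18 and 0.17 (edgeR adjusted p = 0.213, 0.192, 0.506 and 0.344). Those of Pttg1, Mad2l1 and Cdc20 also turned below 0 on the FPKM scale.

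Kinesins rose in 3 of 12 cases, with 0 lower (25% higher, against 11.1% of all tested genes). Here too the excess rests on few genes. Kif11, the motor that pushes spindle poles apart, was at 26.5, 41.2, 36.3 and 43.2 CPM in KO replicates 1 to 4 and at 23.5, 23.4, 20.7 and 23.2 CPM in WT replicates 1 to 4 (0.70 ± 0.15, edgeR adjusted p = 0.0129). Kif15, which can share the task of Kif11, was at 16.2, 25.4, 19.5 and 25.7 CPM against 14.1, 12.9, 13.3 and 15.4 CPM (0.64 ± 0.16, edgeR adjusted p = 0.0235). In both genes KO replicate 1 was the tumour nearest the controls and still above all of them. Kif18b, a motor of astral microtubule ends, was at 8.82, 12.1, 12.4 and 14.7 CPM against 8.23, 7.78, 7.26 and 7.19 CPM (0.66 ± 0.17, edgeR adjusted p = 0.0245), also without overlap. With 1 tumour left out Kif11 stayed called, while Kif15 missed the threshold in the fits that dropped WT replicate 1, 2 or 3 or KO replicate 2 or 4 (edgeR adjusted p at most 0.0698) and Kif18b in those that dropped WT replicate 3 or KO replicate 2 or 3 (0.0644).

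The other 9 kinesin genes were not called and their log2 differences ran from −0.054 to 0.55. Kif14 (a cytokinesis motor) and Kifc1 (a minus-end motor that focuses poles) did not overlap between the groups although they missed the threshold (log2 differences 0.50 and 0.55, edgeR adjusted p = 0.0592 and 0.0791). Kif22 (0.48), Kif4 (0.48), Kif2c (0.44) and Kif20a (0.35) were called once KO replicate 1 was left out (edgeR adjusted p = 0.0314, 0.0249, 0.0213 and 0.0278). These genes were called in no other fit with 1 tumour left out. They encode motors of chromosome arms, a microtubule depolymerase of centromeres and a motor of the midzone. Kif20b was at a log2 difference of 0.28 and Kif18a, which dampens chromosome movements, at 0.044. Kif23, a subunit of the centralspindlin complex of the midzone, had the highest FPKM of the kinesins (7.74, mean of 8 tumours). Its level was 42.1, 46.5, 46.0 and 49.997 CPM in KO replicates 1 to 4 and 44.9, 58.5, 45.9 and 42.4 CPM in WT replicates 1 to 4. WT replicate 2 was the highest of all, and the log2 difference of −0.054 (95% interval −0.31 to 0.20, edgeR adjusted p = 0.763) turned above 0 without that tumour. Its partner in the complex, Racgap1, had a log2 difference of 0.37 (edgeR adjusted p = 0.140).

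At the kinetochore 4 of 11 genes rose and 0 fell (36.4% higher, against 11.1% of all tested genes). Cenpa, the histone H3 variant that marks centromeres (mm10 chromosome 5, 30666886 to 30674837, plus strand), was at 26.5, 43.4, 34.3 and 37.9 CPM in KO replicates 1 to 4 and at 20.8, 18.8, 16.3 and 22.6 CPM in WT replicates 1 to 4. Its log2 fold change of 0.86 ± 0.16 (edgeR adjusted p = 0.00905) equalled that of Espl1 to 2 decimals. Cenpa was also the most abundant of the class per length, at 12.8 ± 2.80 against 7.91 ± 0.959 FPKM (SD, n = 4 each, for another transcript of the gene). The other 3 that rose encode subunits of the NDC80 complex, which grips microtubules. Spc24 was at 5.99, 5.86, 6.94 and 7.72 CPM against 3.70, 3.87, 3.77 and 4.36 CPM (0.76 ± 0.16, edgeR adjusted p = 0.0120). Nuf2 was at 12.0, 17.2, 15 and 17.5 CPM against 10.2, 7.82, 9.55 and 12.3 CPM (0.63 ± 0.17, edgeR adjusted p = 0.0335). Ndc80 was at 9.51, 13.4, 10.4 and 12.5 CPM against 7.55, 8.15, 8.20 and 9.13 CPM (0.47 ± 0.15, edgeR adjusted p = 0.0488). Spc24 and Ndc80 did not overlap between the groups, whereas WT replicate 4 exceeded KO replicate 1 for Nuf2. The fourth subunit, Spc25, had a log2 difference of 0.46 and was not called (edgeR adjusted p = 0.0753). With 1 tumour left out the Nuf2 call was lost in 6 of 8 cases (highest edgeR adjusted p = 0.0936, kept without KO replicate 1 or WT replicate 4), and the Ndc80 call in all cases but KO replicate 1 (0.133).

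The large corona proteins Cenpe, a motor, and Cenpf were at log2 differences of 0.44 and 0.50 (edgeR adjusted p = 0.0979 and 0.0645) and were called without KO replicate 1 (edgeR adjusted p = 0.0329 and 0.0244). Neither was called in any other fit with 1 tumour left out. The inner kinetochore genes Cenph, Cenpk, Cenpm and Cenpn were among the least abundant members and were not called. Cenpk (0.61) did not overlap between the groups and Cenpn was at 0.54 (edgeR adjusted p = 0.0651 and 0.0660). Cenph (−0.046, 95% interval −0.49 to 0.39) and Cenpm (0.083, −0.47 to 0.64) were near 0 with wide intervals, and the sign of each turned under other settings.

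All 3 remaining subunits of the chromosomal passenger complex rose, as did its kinase Aurkb, beside 11.1% of all tested genes called higher. Incenp, the scaffold, was at 69.4, 76.7, 71.7 and 87.6 CPM in KO replicates 1 to 4 and at 56.2, 39.7, 56.7 and 53.1 CPM in WT replicates 1 to 4 (0.57 ± 0.13, edgeR adjusted p = 0.0161). Cdca8, which encodes borealin, was at 20.8, 23.7, 22.6 and 27.0 CPM against 15.6, 17.1, 15.6 and 18.1 CPM (0.50 ± 0.11, edgeR adjusted p = 0.0127). Both stayed called with any 1 tumour left out, and WT replicate 2 was the low control for Incenp. Birc5, which encodes survivin, was at 24.7 ± 3.81 against 17.7 ± 0.855 CPM (SD, n = 4 each), without overlap (0.48 ± 0.12, edgeR adjusted p = 0.0252). It missed the threshold in 6 of 8 fits with 1 tumour left out, and passed only when KO replicate 1 or WT replicate 4 was dropped (edgeR adjusted p at most 0.0741).

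Of the 7 genes of the chromosome surface, spindle and cytokinesis 3 rose and 0 fell (42.9% higher, against 11.1% of all tested genes). Mki67, which encodes the Ki-67 protein that coats mitotic chromosomes and is the usual marker of dividing cells in tumour sections (mm10 chromosome 7, 135689788 to 135716379, minus strand), was at 192, 244, 251 and 273 CPM in KO replicates 1 to 4 and at 169, 134, 151 and 156 CPM in WT replicates 1 to 4. The groups did not overlap, and the log2 fold change was 0.65 ± 0.12 (edgeR adjusted p = 0.00849). Top2a, the topoisomerase that untangles sister chromatids, was at 107.5, 154, 136 and 152 CPM against 86.3, 93.6, 85.0 and 107.6 CPM (0.56 ± 0.13, edgeR adjusted p = 0.0176). Here KO replicate 1 and WT replicate 4 were level. Tpx2, the activator of Aurora A on spindles, was at 31.8, 45.0, 41.1 and 44.2 CPM against 29.7, 27.7, 26.3 and 30.9 CPM (0.50 ± 0.12, edgeR adjusted p = 0.01996), without overlap. Top2a and Tpx2 missed the threshold when either WT replicate 3 or KO replicate 2 was dropped (highest edgeR adjusted p = 0.0543 and 0.0611). Genes of the cleavage furrow and midzone were not called: Prc1, a microtubule bundler, was at 0.37, Racgap1 at 0.37, the scaffold gene Anln at 0.22 and the exchange factor gene Ect2 at 0.20 (edgeR adjusted p = 0.0512, 0.140, 0.366 and 0.356). Prc1 and Racgap1 were called without KO replicate 1 (edgeR adjusted p = 0.0386 and 0.0404). Prc1 was also called without WT replicate 2 (edgeR adjusted p = 0.0459). Neither was called in any other fit with 1 tumour left out.

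Per length of transcript, the members spanned a wide range. On the FPKM scale (reads per kilobase of transcript scaled to sequencing depth, here the mean of all 8 tumours) Bub3 was highest at 18.1, followed by Top2a at 12.3, Incenp at 11.0, Birc5 at 10.9, Mki67 at 10.7, Pttg1 at 10.4 and Cenpa at 10.3. The lowest were Kif14 at 0.594, Kif18a at 1.05 and Ccnb1 at 1.08. The Ccnb1 value was low beside those of Ccnb2 (8.82) and Ccna2 (8.29), and how completely its reads were counted was not tested. The neighbours from Incenp to Cenpa differ by less than the spread between tumours of a group (for Mki67 an SD of 2.06 in those labelled KO). The transcript kept for a gene was the same in both tables for 40 members and another for 10, among them Cenpa, Birc5, Pttg1 and Aurka. For Birc5 the FPKM values used 966 bases and the counts 3411 bases, and for Pttg1 732 and 1684 bases. The places of these genes in the order above therefore depend on the transcript kept.

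No member passed the threshold between the 2 control genotypes. In a fit of the 3 Lifr genotypes 0 of 50 members were called between f/+ and +/+ tumours (edgeR quasi-likelihood test), against 1 of 15284 genes tested (0.00654%), and 0 members had an unadjusted p under 0.05. The log2 differences, f/+ minus +/+, had a median of −0.022 and ran from −0.41 to 0.40, with 22 above 0 and 28 below. With 2 tumours in each group the intervals were wide, at −0.51 to 0.51 for Cdk1, −0.54 to 0.60 for Cenpa and −0.35 to 0.15 for Bub3. In members such as Cdk1 and Cenpa even a difference of 0.48, the members' median between KO and WT, could go undetected. The sums were 1153 and 1104 CPM in f/+ tumours and 1100 and 1175 CPM in +/+ tumours.

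Other gene groups of the cell cycle were counted in the same fit, and differences between the lists were not tested. Beside them, 11.1% of all tested genes were called higher and 10.8% lower, with a median log2 fold change of 0.011. Of 82 other genes of mitosis 13 were called higher and 0 lower (15.9%), with a median log2 fold change of 0.21. Their lowest p-values belonged to Rbl1 (0.47 ± 0.094), the condensin gene Smc2 (0.39 ± 0.087) and Nsl1 of the MIS12 kinetochore complex (0.81 ± 0.18). The edgeR adjusted p-values were 0.0111, 0.0154 and 0.0172. Rbl1 encodes a pocket protein, and the list also holds other regulators of transcription such as E2f4 and Lin9. Of 50 genes of DNA replication 10 were called higher (20%) and 0 lower, with a median of 0.21. The helicase genes Mcm3 (0.63 ± 0.070), Mcm5 (0.68 ± 0.10) and Mcm6 (0.62 ± 0.11) led them (edgeR adjusted p = 0.0044, 0.0049 and 0.00689). Among 19 G1 cyclins, their partners and CDK inhibitors 4 were called higher and 4 lower, the CDK inhibitor gene Cdkn2d (0.91 ± 0.13) being higher and Cdkn2a (−1.12 ± 0.17) and the cyclin D1 gene Ccnd1 (−0.95 ± 0.16) lower (edgeR adjusted p = 0.0044, 0.00547 and 0.00664). With library totals alone the counts higher became 2 for other genes of mitosis and 4 for DNA replication, and the share of all tested genes 6.11%.

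KO replicate 1 differed from its group in mitotic more than in replication genes. The summed DNA replication level was 1462, 1562, 1618 and 1577 CPM in KO replicates 1 to 4 and 1293, 1293, 1324 and 1353 CPM in WT replicates 1 to 4, so KO replicate 1 was above all controls there. The mitotic sum divided by the replication sum was 0.845 in KO replicate 1, within the 0.831 to 0.892 of the controls, and 1.07, 0.963 and 1.121 in KO replicates 2 to 4. KO replicate 1 was the lowest of its group in 68.3% of the other genes of mitosis and in 56.0% of the replication genes, beside 98.0% of the 50 members. These are values of 1 tumour and were not tested. Relative to the summed epithelial markers, the mitotic sum was 0.334 ± 0.0739 against 0.136 ± 0.0207 (SD, n = 4 each); the epithelial markers in the denominator were themselves lower in the tumours labelled KO.

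**Figure D5:**
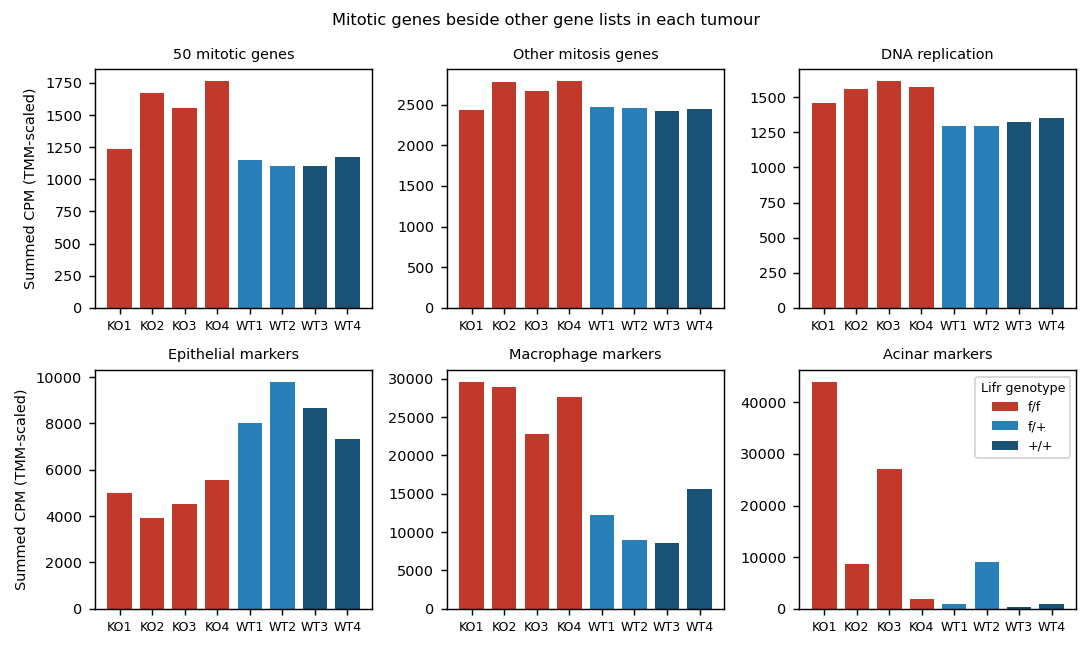
Summed CPM of 6 gene lists in each tumour, coloured by Lifr genotype, each panel with its own scale from 0. KO replicate 1 has a mitotic sum of 1236 CPM near the controls and the highest acinar sum, while epithelial markers are lower and macrophage markers higher in all 4 tumours labelled KO.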

How the data were processed

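The authors deposited raw gene counts and FPKM values for 8 tumours. Per the file headers, both came from HOMER analyzeRepeats.pl on mm10 RefSeq transcripts, with exon counts, the strand option set to + and gene entries condensed to 1 transcript. The counts are unnormalized whole numbers, and the deposited FPKM values are scaled to transcript length and depth. The submitters' processing notes also name FastQC 0.11.2, STAR 2.4.0k and edgeR 3.6.8, with no role given, and library strandedness is not given in the sources used here. Counts in genes were 73.5% to 80.2% of the header totals, and 4952 genes had none. Libraries of a group all differed by more than sampling noise (chi-square divided by its degrees of freedom at least 30.7).

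Counts were fitted in R 4.3.3 with edgeR 4.0.16 (TMM, filterByExpr with minimum count 10 and minimum total 15, glmQLFit, glmQLFTest), with Benjamini-Hochberg adjustment over all genes tested. SE and 95% intervals come from the same fit. DESeq2 1.42.0 and limma 3.58.1 on log2(FPKM + 1) or log2(FPKM + 0.1) (mean FPKM at least 0.5) were alternatives, beside other scalings, other controls and each tumour left out. The script was tested on simulated data. Replicate numbers follow listing order and pair no tumours. Nothing says that mice shared no litter, so p-values measure the spread between these tumours. The members and lists were chosen with earlier results of these data known. By a fixed rule, values in every tumour are given for up to 4 called members of a class (2 in the smallest) with the smallest p, its most abundant member, and Mki67, Cdk1, Ccnb1, Aurkb, Kif11 and Cenpa. A further allele that all 8 mice carried is not reported here.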

Additional observations from a re-analysis of the deposited data

Results flagged for a closer look

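Of 150 groups of 4 values examined, 6 had a tumour far from the other 3, and chance flags about 1 in 20 groups. Among members, Aurka was low in KO replicate 1 (13 CPM, others 18.1 to 18.7), Kif2c was low in the same tumour (12.0 CPM, others 18.0 to 19.0) and Kif11 was low in WT replicate 3 (20.7 CPM, others 23.2 to 23.5). The passenger complex sum was low in WT replicate 2 (74.0 CPM, others 88.7 to 90.2). Of the marker lists, the B and plasma cell sum was high in KO replicate 3 (2688 CPM, others 504 to 877) and the acinar sum was high in WT replicate 2 (9005 CPM, others 433 to 1011).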

How the results depend on the processing

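No member was called lower under any of the 19 alternatives. The count called higher (19) was 27 with the DESeq2 Wald test, 18 with DESeq2 size factors in edgeR and 18 without a filter on low counts. The shares of all tested genes called higher were 13.9%, 10.7% and 7.73%, beside 11.1% in the main fit. The member count was 8 with library totals alone and 50 when the epithelial list set the scale. In these settings 6.11% and 73.1% of all tested genes were called higher, and the epithelial scale moved their median to 0.85. With only f/+ or only +/+ controls, where fewer tumours were fitted, the count was 6 or 1. The all-gene shares there were 6.75% and 3.41%. So with only +/+ controls members were not called more often than other genes, though 46 lay above 0 with a median of 0.47. The count was 7, 6 and 5 with limma on log2(FPKM + 1), log2(FPKM + 0.1) and log2(FPKM + 1) without a filter. All-gene shares were 6.69%, 6.31% and 4.10%. The count ranged from 11 to 31 with 1 tumour left out, with all-gene shares of 6.14% to 11.0%. It was 27, beside an all-gene share of 6.33%, without KO replicate 1 and WT replicate 2. These held the most acinar RNA of each group, and this setting was added after seeing the data. Of the 19 called members 11 stayed called with any 1 tumour left out. The share of all calls that were higher was 50.7%, 22.5% with library totals and 99.0% scaled to the epithelial list.

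Signs turned in 8 members, none of them among the 19. With library totals Bub3 was at −0.13, Mad2l1 at −0.00041, Pttg1 at −0.11, Kif18a at −0.13 and Cenpm at −0.086. With log2(FPKM + 1), filtered or not, Bub3 was at −0.13, Mad2l1 at −0.0080, Cdc20 at −0.0042, Pttg1 at −0.11, Kif18a at −0.074 and Cenpm at −0.048, and with log2(FPKM + 0.1) at −0.13, −0.011, −0.0068, −0.12, −0.15 and −0.070. With only +/+ controls Bub3 was at −0.0078, Pttg1 at −0.017, Cenpm at −0.11 and Kif23 at 0.065, and with only f/+ controls Kif18a was at −0.061. Scaled to the epithelial list Kif23 was at 0.80 and Cenph at 0.79, and without KO replicate 1 and WT replicate 2 they were at 0.10 and 0.0028. With 1 tumour left out Bub3 ranged from −0.012 to 0.074, Pttg1 from −0.019 to 0.15, Kif18a from −0.14 to 0.16, Kif23 from −0.11 to 0.058, Cenph from −0.15 to 0.038 and Cenpm from −0.051 to 0.27. The causes were not tested.

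The log2 ratio of the summed level (0.46) was 0.29 with library totals, 0.24 in FPKM and 1.30 scaled to the epithelial list. With library totals the other genes of mitosis had 2 called higher and 3 lower (13 and 0), and DNA replication 4 and 1 (10 and 0). Of all tested genes 900 were then called higher (6.11%) and 3108 lower. Scaled to the epithelial list 80 other genes of mitosis, 50 of DNA replication and 14 of G1 were higher with 0 of G1 lower, and 1 epithelial marker was higher and 0 lower. That scaling called 10765 of 14728 tested genes higher (73.1%), and 14 of 19 G1 genes is near that share. Between f/+ and +/+ tumours 0 members were called under the 11 alternatives run in edgeR (DESeq2 size factors, library totals, no filter and each tumour left out); without a control tumour, 1 genotype had a lone sample assumed to vary like the others. No paired analysis was possible because the labels number no replicates.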
